A study of Homo sapiens with 6 samples.

Results

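The genes described here are the ligands, receptors and profibrotic targets of transforming growth factor beta (TGF-beta), a pathway that blockade of the angiotensin receptor is known to lower. They were chosen by gene symbol: the 3 ligands TGFB1, TGFB2 and TGFB3, the receptors TGFBR1 and TGFBR2, and the targets CTGF, CYR61, THBS1 and POSTN. All 9 were found among the 21134 genes of the expression table, and all 9 passed the filter on low counts, which left 14926 genes for testing. Current naming calls CTGF CCN2 and CYR61 CCN1, and positions below are those of RefSeq in GRCh38.p14.

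TGF-beta ligands are secreted in a latent form, bound to their own propeptide and to the matrix, and must be released before they can signal. The free ligand brings the type II receptor TGFBR2 together with the type I receptor TGFBR1, which phosphorylates SMAD proteins that enter the nucleus and switch on genes for extracellular matrix. In the heart the pathway is known for turning fibroblasts into matrix-producing myofibroblasts, and angiotensin II is known to raise TGF-beta signaling. CTGF, CYR61 and THBS1 are secreted matricellular proteins that also respond to YAP and TEAD, the transcriptional arm of Hippo signaling.

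RNA was sequenced from human cardiomyocytes in culture, which the labels describe as derived from induced pluripotent stem cells (hiPSC-CMs) and assign to the line H9, known as an embryonic stem cell line. The study asked what alcohol does to these cells and whether losartan, a blocker of the angiotensin II type 1 receptor, changes it. Cells of 2 libraries had no treatment (control), those of 2 had alcohol at 100 mM (alcohol), and those of 2 had alcohol at 100 mM and losartan at 1 μM (co-treated), each for 24 h where treated. No group received losartan without alcohol, 1 line was used, and nothing in the labels says that libraries of a group came from separate cultures, so p-values measure the spread between these libraries, which may be technical.

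The libraries held 4898287 to 5051448 expected counts, and a count of 0 still allows up to 3 counts, or 0.594 to 0.612 CPM (counts scaled to library size), counting error only. The summed level of 10 cardiomyocyte markers was 17995 to 25344 FPKM (fragments scaled to transcript length and library size), and that of 9 fibroblast markers was 299 to 374 FPKM, with TCF21 and FAP under 1 FPKM in every library. The endothelial markers PECAM1, CDH5, VWF and EMCN, the epicardial markers WT1, UPK3B, MSLN and ALDH1A2, and the endoderm markers SOX17 and FOXA2 were also under 1 FPKM throughout. The other endoderm markers were present, with AFP at 20.4 to 28.4 FPKM and APOA1 at 13.1 to 22.3 FPKM, and the 6 markers of that list summed to 36.7 to 49.5 FPKM. COL1A1 and COL3A1, collagen genes that mark fibroblasts but are made by other cells too, carried much of the fibroblast sum, with 127 ± 11.7 and 156 ± 16.3 FPKM in control (mean ± SD, n = 2). The alcohol replicate 2 library stood apart: its summed level of 7 smooth muscle markers was 752 FPKM, against 1492 in alcohol replicate 1 and 1029 to 1967 in the other 4 libraries, and its cardiomyocyte sum was the lowest of the 6. That sum rests mostly on MYL7, and single cardiomyocyte markers went both ways. From alcohol replicate 1 to 2, MYL7 went from 12612 to 9321 and MYH7 from 3429 to 2474 FPKM. MYH6 went from 381 to 737 and RYR2 from 66.5 to 73.3 FPKM. Bulk RNA cannot tell fewer cells of a type from less RNA per cell.

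The expression table held 0 counts of AGTR1, the receptor that losartan blocks, in both control libraries, in alcohol replicate 2 and in co-treated replicate 1. There was 1 count in alcohol replicate 1 and there were 2 in co-treated replicate 2, so every library was under the limit of 3 counts and no comparison of AGTR1 was possible. AGT, which encodes the precursor of angiotensin, was at 17.0 and 20.0 FPKM in control, 23.0 and 25.2 in alcohol, and 25.4 and 25.3 in co-treated libraries. The AGT difference between co-treated and control was a log2 fold change of 0.41 ± 0.13 (SE, edgeR quasi-likelihood F test, adjusted p = 0.221) and did not pass the test. AGTR2 and MAS1 were not listed under those symbols.

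In untreated cells the 9 genes covered a wide range of length-scaled levels. CTGF was highest at 74.9 ± 36.5 FPKM, followed by POSTN at 36.4 ± 1.88, TGFB2 at 30.4 ± 1.47, CYR61 at 24.1 ± 2.21 and THBS1 at 23.1 ± 7.86 FPKM (mean ± SD, n = 2). Below them lay TGFB1 at 10.4 ± 0.403, TGFBR1 at 7.81 ± 0.304, TGFBR2 at 7.48 ± 0.495 and TGFB3 at 1.39 ± 0.438 FPKM. Neighbours in this order had separate ranges over the control libraries except CYR61 with THBS1 and TGFBR1 with TGFBR2, whose ranges overlapped. CTGF lay above 95.9% and TGFB3 above 31.1% of the 19609 genes with a control mean above 0.

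**Figure D1:**
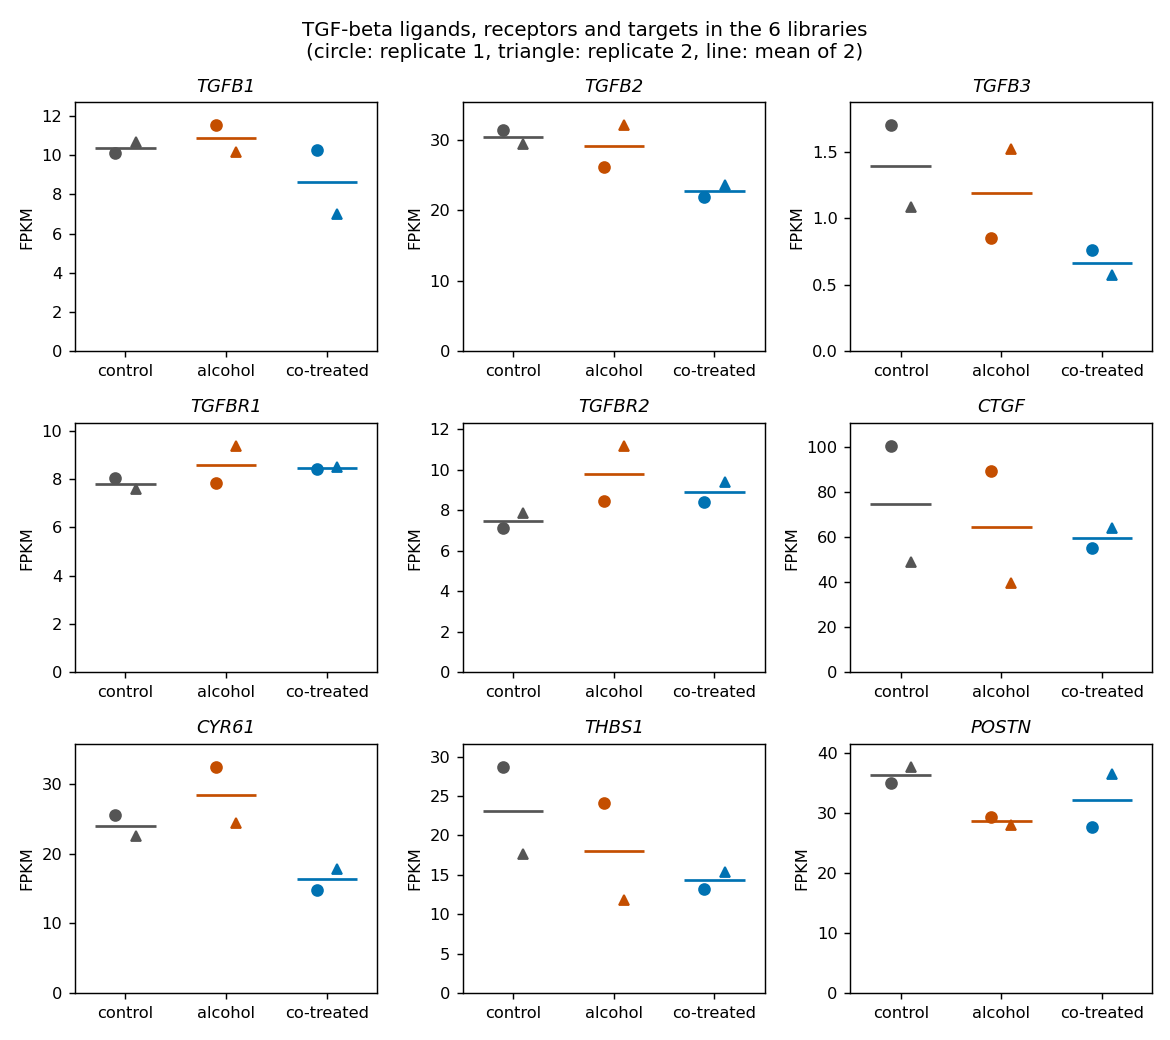
FPKM of the 9 genes (vertical axes, each from 0) by group, with a circle for replicate 1, a triangle for replicate 2 and a line for the mean of 2 libraries. CYR61, TGFB2 and TGFB3 were lower in both co-treated libraries than in the other 4, whereas CTGF and THBS1 were spread widest within the control and alcohol groups.

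None of the 9 genes passed the test in any of the 3 comparisons. By edgeR's quasi-likelihood F test with Benjamini-Hochberg adjustment over the 14926 genes, 0 of 9 were called in alcohol against control, where 0.0670% of all genes were called. It was again 0 of 9 in co-treated against alcohol, with 0.0134% of all genes called, and 0 of 9 in co-treated against control, with 0.362% called. DESeq2 and limma also called 0 of 9 in each comparison, but DESeq2 gave TGFB3 no adjusted p in alcohol against control. At an unadjusted p under 0.05, 1 member was lower (POSTN) and 1 higher (TGFBR2) with alcohol against control, where 5.78% of all genes were lower and 5.27% higher. Co-treated against alcohol had 2 lower (CYR61 and TGFB2), where 2.71% of all genes were lower, and 0 higher, where 2.84% were higher. Co-treated against control had 4 lower (TGFB2, TGFB3, CYR61 and THBS1), where 6.37% of all genes were lower, and 0 higher, where 6.26% were higher. These comparisons share their libraries in pairs, so the counts are not independent of each other.

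The median log2 fold change of the 9 genes was -0.10 with alcohol against control, -0.34 with co-treated against alcohol and -0.38 with co-treated against control, where the median over all genes tested was 0.00 in each. Of the 9 genes, 5, 8 and 7 lay below 0 in these comparisons, beside 50.6%, 49.7% and 50.2% of all genes. In 3 of the 9, CYR61, TGFB2 and TGFB3, both co-treated libraries lay below the other 4, which was so for 7.81% of all genes tested.

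**Figure D2:**
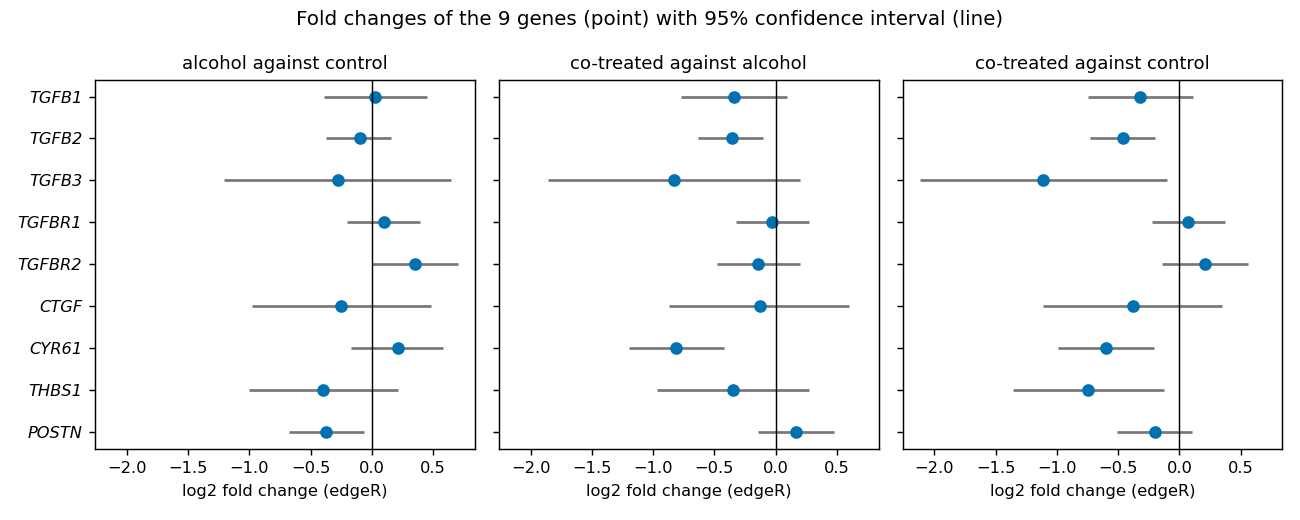
Log2 fold changes of the 9 genes (points, horizontal axis) with 95% confidence intervals (lines) in the 3 comparisons, from edgeR. Intervals that lie wholly below 0 belong to POSTN in the left panel, to TGFB2 and CYR61 in the middle panel, and to TGFB2, TGFB3, CYR61 and THBS1 in the right panel, and none of these passed the adjusted test.

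Among the ligands, TGFB2 was the most abundant in every library. TGFB2 (chr1:218345336-218444619), which is expressed in the embryonic heart and is needed for valve and septum formation, measured 31.44 and 29.36 FPKM in control, 26.20 and 32.11 in alcohol, and 21.86 and 23.57 in co-treated libraries. The control and alcohol ranges overlapped, and both co-treated libraries lay below all others. With alcohol the log2 fold change from control was -0.10 ± 0.12 (SE, edgeR, adjusted p = 0.828). With co-treatment it was -0.36 ± 0.12 against alcohol (edgeR, adjusted p = 0.836) and -0.46 ± 0.12 against control (edgeR, adjusted p = 0.127). The latter is a level 0.725 times that of control, and over 14 alternative settings its log2 fold change ran from -0.54 to -0.39 and its adjusted p from 0.0840 to 0.475.

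TGFB1 (chr19:41330323-41353922), the ligand most often tied to fibrosis, measured 10.10 and 10.67 FPKM in control, 11.55 and 10.17 in alcohol, and 10.26 and 7.00 in co-treated libraries. In FPKM only co-treated replicate 2 was low: co-treated replicate 1 lay inside the range of the alcohol libraries. In CPM co-treated replicate 1 was also inside that range, at 26.0, but below both controls (26.9 and 27.9). Alcohol against control gave a log2 fold change of 0.03 ± 0.20 (95% interval -0.39 to 0.45) and -0.34 ± 0.20 for co-treated against alcohol (-0.77 to 0.09, edgeR, adjusted p = 0.915). Co-treated against control gave -0.32 ± 0.20 (edgeR, adjusted p = 0.562). Without alcohol replicate 1 the alcohol difference turned to -0.10.

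TGFB3 (chr14:75958097-75983011) was the least abundant ligand, with 1.70 and 1.08 FPKM in control, 0.85 and 1.52 in alcohol, and 0.76 and 0.57 in co-treated libraries. These values rest on 30 and 19, 15 and 26, and 13 and 10 counts, so its intervals were the widest of the 9. Both co-treated libraries were lower than the other 4, and control and alcohol overlapped. Co-treated against control gave a log2 fold change of -1.11 ± 0.47 (95% interval -2.12 to -0.10, edgeR, adjusted p = 0.343), and co-treated against alcohol gave -0.83 ± 0.48 (adjusted p = 0.915). The alcohol difference of -0.28 ± 0.43 turned to 0.11 without control replicate 1 and to 0.06 without alcohol replicate 1.

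The balance between ligands varied as much within groups as between them. TGFB2 stood at 3.11 and 2.75 times TGFB1 on the FPKM scale in control, 2.27 and 3.16 times in alcohol, and 2.13 and 3.37 times in co-treated libraries. TGFB1 was 5.94 to 13.6 times TGFB3. In GENCODE v29 the TGFB1 gene body (chr19:41301587-41353911) reaches further at its 3′ end than the RefSeq position above. It overlaps HNRNPUL1, CCDC97 and TMEM91 on the opposite strand, and TGFB3 lies inside IFT43 on the opposite strand. Exons in GENCODE are shared over 215 bases by TGFB1 with HNRNPUL1 and over 0 bases by TGFB3 with IFT43. Whether the TGFB1 overlaps fall inside the RefSeq gene, or the transcript of 2583 bases counted here, was not tested. HNRNPUL1 was at 52.66 to 57.42 FPKM and IFT43 at 9.25 to 15.97 FPKM, and whether the reads were counted by strand is not given in the sources used here.

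Both receptors were at similar length-scaled levels, and their group means were higher with alcohol and with co-treatment than in control without passing the test. TGFBR2 (chr3:30606356-30694142), the receptor that binds the ligand, measured 7.13 and 7.83 FPKM in control, 8.44 and 11.17 in alcohol, and 8.40 and 9.38 in co-treated libraries. All 4 libraries with alcohol lay above both control libraries, and the alcohol libraries differed from each other by 1.32 times. Alcohol against control gave a log2 fold change of 0.35 ± 0.16 (95% interval 0.00 to 0.70, edgeR, adjusted p = 0.449), and co-treated against control gave 0.21 ± 0.16 (edgeR, adjusted p = 0.651). Co-treated against alcohol gave -0.14 ± 0.16, which became 0.03 without alcohol replicate 2.

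TGFBR1 (chr9:99103647-99154192), the kinase that passes the signal on, was the steadiest of the 9 genes. It measured 8.03 and 7.60 FPKM in control, 7.82 and 9.38 in alcohol, and 8.44 and 8.52 in co-treated libraries, and its group means spanned 0.09 on the log2 CPM scale. The log2 fold changes were 0.10 with alcohol against control (95% interval -0.20 to 0.39), -0.03 with co-treated against alcohol (-0.32 to 0.27) and 0.07 with co-treated against control (-0.22 to 0.37). Differences within these intervals are not excluded with 2 libraries a group. The bounds are not limits of detection: CYR61 at -0.81 in co-treated against alcohol did not pass the adjusted test. Without alcohol replicate 2 the value for co-treated against alcohol was 0.07.

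CYR61 (CCN1, chr1:85580761-85583950), an immediate-early matricellular gene, carried the lowest p of the members. It measured 25.62 and 22.50 FPKM in control, 32.52 and 24.44 in alcohol, and 14.86 and 17.86 in co-treated libraries. Control and alcohol overlapped, and the highest co-treated library lay below the lowest of the other 4. Between co-treated and alcohol libraries the log2 fold change was -0.81 ± 0.18 (95% interval -1.20 to -0.42, edgeR, adjusted p = 0.461), a level 0.570 times that of the alcohol group, and CYR61 ranked 18 by p among 14926 genes. Against control it was -0.60 ± 0.18 (95% interval -0.99 to -0.21, edgeR, adjusted p = 0.177). Its adjusted p stayed between 0.192 and 0.990 over 14 alternatives in the former comparison and between 0.0930 and 0.535 in the latter. With alcohol alone the difference from control was 0.21 ± 0.17 and became -0.04 without alcohol replicate 1.

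CTGF (CCN2, chr6:131948176-131951372), the best known transcriptional target of TGF-beta in fibrosis, differed more between replicates than between groups. It measured 100.7 and 49.08 FPKM in control, 89.39 and 39.52 in alcohol, and 55.23 and 64.10 in co-treated libraries. Replicate 1 was 2.05 times replicate 2 in control and 2.26 times in alcohol, while the co-treated libraries lay between them and within 1.16 times of each other. On the log2 CPM scale the widest gap between replicates was 1.25, against 0.29 between the group means, and 2.53% and 1.82% of tested genes were at least as far apart between the control and alcohol replicates. No difference between groups passed the test: the log2 fold changes were -0.25 ± 0.34 with alcohol against control, -0.13 ± 0.34 with co-treated against alcohol and -0.38 ± 0.34 with co-treated against control (edgeR, adjusted p = 0.852, 0.978 and 0.713). The signs turned with single libraries: to 0.40 and 0.25 for alcohol against control without control replicate 1 and without alcohol replicate 2, to 0.62 for co-treated against alcohol without alcohol replicate 1, and to 0.25 for co-treated against control without control replicate 1.

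THBS1 (chr15:39581079-39599466) encodes thrombospondin 1, which can release TGF-beta from its latent complex. Its replicates differed in the same direction as those of CTGF in each group, but the order of the 6 libraries was not the same. Control replicate 2 lay below both co-treated libraries for CTGF and above both for THBS1. It measured 28.70 and 17.58 FPKM in control, 24.06 and 11.85 in alcohol, and 13.23 and 15.33 in co-treated libraries. Replicate 1 was 1.63 times replicate 2 in control and 2.03 times in alcohol, and both co-treated libraries lay below both control libraries but inside the range of the alcohol libraries. Co-treated against control gave -0.75 ± 0.28 on the log2 scale (95% interval -1.36 to -0.13, edgeR, adjusted p = 0.292). It was -0.40 ± 0.28 with alcohol against control and -0.35 ± 0.29 with co-treated against alcohol. The alcohol difference was 0.03 without control replicate 1 and 0.05 without alcohol replicate 2, but -1.04 without alcohol replicate 1 (edgeR, adjusted p = 0.0503), and co-treated against alcohol became 0.29 without that library. FSIP1, on the opposite strand of THBS1, was at 0.28 FPKM or less in every library.

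Over the 6 libraries the Pearson r of log2 CPM with CTGF was 0.92 for THBS1. It was 0.93, 0.74 and 0.47 for the smooth muscle genes CNN1, TAGLN and ACTA2, and for cardiomyocyte genes it was 0.72 for MYL2, the ventricular myosin light chain, 0.69 for ANKRD1 and -0.63 for MYH6, the atrial myosin heavy chain. MYH6 went the other way between the control and alcohol replicates, with 349 and 717 FPKM in control and 381 and 737 in alcohol, and the same way in co-treated libraries, with 305 and 374. The genes set beside CTGF were picked from longer lists, and r with CTGF is not given for the other markers. Those did not share one pattern between replicates 1 and 2. NKX2-5 measured 146 and 142 FPKM in control and 149 and 151 in alcohol, whereas TNNI3 measured 672 and 513, and 735 and 433. These correlations describe 6 libraries that share groups and depth, and the part of the cell composition in the values of CTGF and THBS1 was not tested.

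**Figure D3:**
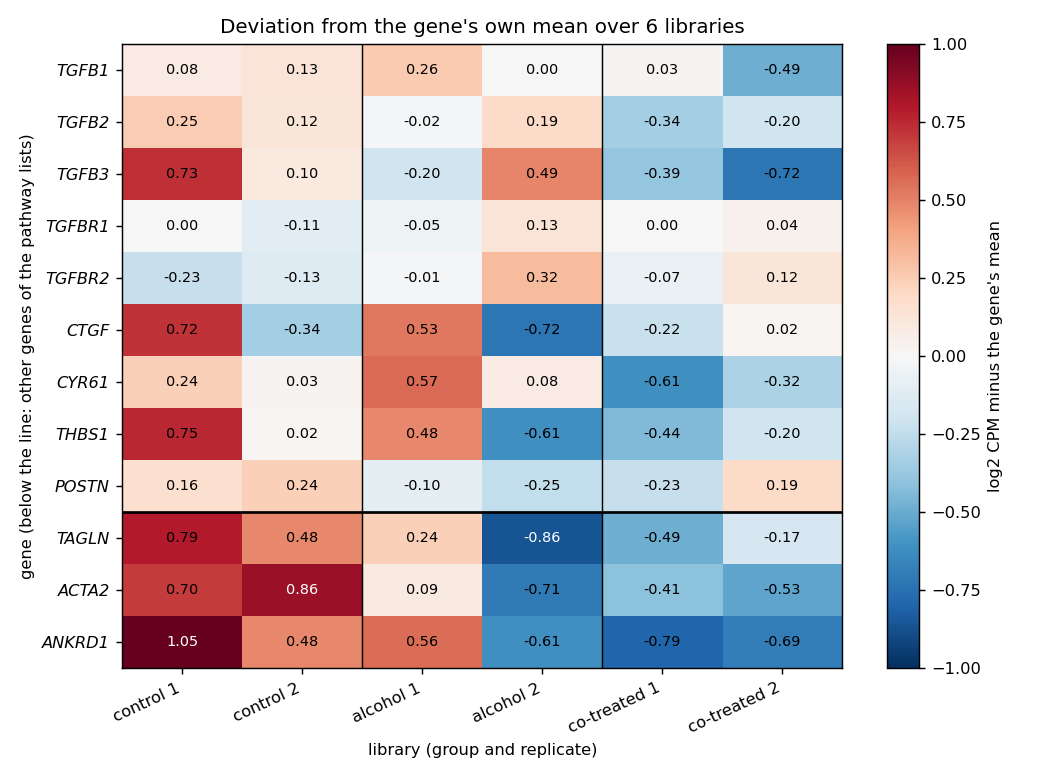
Log2 CPM of each gene (rows) in each library (columns) minus the gene's own mean over the 6 libraries, red above and blue below that mean. CTGF and THBS1 were above their mean in control replicate 1 and alcohol replicate 1 and lowest in alcohol replicate 2 (CTGF -0.72, THBS1 -0.61), whereas CYR61 was below its mean in the co-treated libraries alone.

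The start regions of CTGF and THBS1 are printed because their replicates differed in the same direction in each group. That of TGFB2 is printed because it is the ligand with a match to the same core. Whether CTGF and THBS1 share a regulator in these cells was not tested. They are the 250 bases before the RefSeq start site (GRCh38.p14), read 5′ to 3′ on the strand of the gene, and capitals mark the TEAD core GGAATG or its reverse complement CATTCC. The regions are chr6:131951373-131951622 on the minus strand for CTGF, chr15:39580829-39581078 on the plus strand for THBS1 and chr1:218345086-218345335 on the plus strand for TGFB2.
CTGF: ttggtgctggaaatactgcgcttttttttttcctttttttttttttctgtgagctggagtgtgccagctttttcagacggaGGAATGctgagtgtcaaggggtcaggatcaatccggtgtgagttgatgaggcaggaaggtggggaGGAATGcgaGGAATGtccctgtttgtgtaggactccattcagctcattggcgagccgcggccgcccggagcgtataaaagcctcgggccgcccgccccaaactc
THBS1: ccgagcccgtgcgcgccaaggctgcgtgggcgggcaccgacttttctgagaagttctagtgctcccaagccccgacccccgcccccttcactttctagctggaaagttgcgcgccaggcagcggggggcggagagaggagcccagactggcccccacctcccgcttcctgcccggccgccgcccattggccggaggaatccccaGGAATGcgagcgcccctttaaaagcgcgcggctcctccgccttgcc
TGFB2: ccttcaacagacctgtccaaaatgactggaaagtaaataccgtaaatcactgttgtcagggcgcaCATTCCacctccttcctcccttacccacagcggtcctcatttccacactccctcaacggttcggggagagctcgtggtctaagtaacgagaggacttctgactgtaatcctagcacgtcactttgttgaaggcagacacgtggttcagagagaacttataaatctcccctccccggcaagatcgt

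CTGF held 3 copies of GGAATG, starting 169, 104 and 95 bases before the start site. THBS1 held 1 copy at 46 bases and TGFB2 held 1 on the opposite strand at 185 bases. Of the 8 start sites that RefSeq lists for TGFBR1, 1 held a copy, at 132 bases. The core was present on either strand in 11.9% of 35116 promoters of the same length, and 3 or more copies in 0.0826%, or 29 promoters. The sequence CAGAC, which SMAD proteins recognise, was found on either strand in 38.0% of promoters, in CTGF 177 bases and in THBS1 108 bases before the start site, and in TGFB2 at 243 and 53 bases. It was also found in POSTN at 77 bases, at 1 of the 2 start sites of TGFB3 (133 bases, and 245 bases on the opposite strand) and at 4 of the 8 of TGFBR1, while TGFB1 and TGFBR2 held no copy. The AP-1 site TGACTCA, held by 4.20% of promoters on either strand, was present in POSTN alone, at 220 bases on the opposite strand. TATAAA on the strand of the gene, in 6.80% of promoters, was found in CTGF at 32 bases, in TGFB2 and POSTN at 29 bases and at 1 of the 2 start sites of TGFB3 at 30 bases. These letters describe the windows only, and 8 of the 9 members had an entry. CYR61 was without one.

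POSTN (chr13:37562585-37598768), periostin, a matricellular protein of activated fibroblasts and heart valves, measured 35.05 and 37.71 FPKM in control, 29.40 and 27.96 in alcohol, and 27.75 and 36.46 in co-treated libraries. Both alcohol libraries lay below both control libraries, and the co-treated libraries spanned the gap, with one beside each group. Alcohol against control gave a log2 fold change of -0.37 ± 0.14 (95% interval -0.68 to -0.06, edgeR, adjusted p = 0.353), with values between -0.44 and -0.29 over 14 alternatives. Co-treated against alcohol gave 0.17 ± 0.14 and became -0.06 without co-treated replicate 2, and co-treated against control gave -0.20 ± 0.14 (edgeR, adjusted p = 0.613).

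The genes most alike in pattern were named by Pearson r of log2 CPM over the 6 libraries, among 10778 genes with a mean of at least 10 CPM. TGFB2 was most like ITGA6 (r = 0.999), CTGF most like PHLDB2 (0.985), THBS1 most like MYL12A (0.997), CYR61 most like ARID1B (0.992) and POSTN most like NCBP1 (0.993). TGFB1 was most like GPC1 (0.990), TGFB3 most like SAMD4B (0.986), TGFBR1 most like SLC9A7 (0.994) and TGFBR2 most like APP (0.997). The next were PSMC4 for TGFB2 (0.989), PAQR8 for CTGF (0.983), MAPRE2 for THBS1 (0.995), MMP24-AS1 for CYR61 (0.983) and MNAT1 for POSTN (0.992), and CTBP1-AS for TGFB1 (0.987), GOLGA6L4 for TGFB3 (0.976), ZNF480 for TGFBR1 (0.978) and TMTC2 for TGFBR2 (0.985). Each of the 9 thus had a gene at 0.985 or above among so many compared over 6 libraries. Among the members, TGFB2 with TGFB3 had r = 0.90 and TGFBR1 with TGFBR2 had r = 0.76, and CTGF with CYR61, its relative in the CCN family, had r = 0.47.

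The rest of the pathway was read from lists of genes by role. Of 18 genes for latency and activation, all tested, 0 were called in any comparison by edgeR or limma, and 1 (FBN2) was called lower by DESeq2 with alcohol and with co-treatment against control. At an unadjusted p under 0.05, 2 were higher and 2 lower with alcohol against control, 0 and 1 with co-treated against alcohol, and 1 and 2 with co-treated against control. Of all genes tested, 5.27% were higher and 5.78% lower, then 2.84% and 2.71%, and 6.26% and 6.37%, in the same order. The same shares apply to the lists below. The median log2 fold change of the latency list was -0.06, -0.13 and -0.20 in the order above. The microfibril gene FBN2, whose product helps to store latent TGF-beta in the matrix, measured 141 and 143 FPKM in control, 111 and 102 in alcohol, and 104 and 91.9 in co-treated libraries. All 4 libraries with alcohol lay below both controls, with log2 fold changes of -0.45 ± 0.13 for alcohol (edgeR, adjusted p = 0.208) and -0.58 ± 0.13 for co-treatment (adjusted p = 0.0787). LTBP2, a member of the latent TGF-beta binding protein family, measured 1.12 and 1.15 FPKM in control, 2.12 and 2.24 in alcohol, and 2.00 and 1.81 in co-treated libraries, a log2 fold change of 0.90 ± 0.21 with alcohol (edgeR, adjusted p = 0.139). ITGB5, a subunit of an integrin that activates latent TGF-beta, was at 14.4 and 15.3 FPKM in control and 10.3 and 10.2 in co-treated libraries (log2 fold change -0.58 ± 0.15, edgeR, adjusted p = 0.113).

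Of 11 co-receptors and related receptors and of 19 SMADs and their regulators, all tested, 0 were called in any comparison by edgeR, DESeq2 or limma. The medians of the receptor list were 0.13, -0.02 and 0.04, and those of the SMAD list were -0.05, 0.02 and 0.00. At an unadjusted p under 0.05 the receptor list had 1 gene higher (ENG, an endothelial co-receptor, 0.50 ± 0.23) and 1 lower (BAMBI, a decoy receptor, -0.27 ± 0.11) in co-treated against control and 0 in the other comparisons. The SMAD list had 0 higher and 1 lower with alcohol against control, 0 with co-treated against alcohol, and 1 higher and 2 lower with co-treated against control. Within it the inhibitory SMAD6 had a log2 fold change of -0.50 ± 0.16 in co-treated against control (edgeR, adjusted p = 0.215). SMURF1, a ubiquitin ligase that limits SMAD signaling, had -0.42 ± 0.14 with alcohol against control (edgeR, adjusted p = 0.289).

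Of 22 matrix genes and SMAD3 targets, 20 were tested, and 1 fell in co-treated against control while 0 were called in the other comparisons. At an unadjusted p under 0.05, 0 were higher and 5 lower with alcohol against control, where 5.78% of all genes were lower. It was 0 either way with co-treated against alcohol. With co-treated against control 1 was higher and 5 lower, where 6.37% of all genes were lower. The medians were -0.13, -0.09 and -0.16. The gene that fell was ACTA2, smooth muscle alpha-actin, a hallmark of myofibroblasts that immature cardiomyocytes and smooth muscle also express. It measured 507 and 580 FPKM in control, 337 and 203 in alcohol, and 248 and 224 in co-treated libraries. All libraries with alcohol lay below both controls, and the co-treated libraries lay inside the alcohol range. The log2 fold change was -1.25 ± 0.20 with co-treated against control (edgeR, adjusted p = 0.0203) and -1.04 ± 0.20 with alcohol against control (adjusted p = 0.0797), and co-treated against alcohol gave -0.21 ± 0.20 (adjusted p = 0.945). The call in co-treated against control was lost without co-treated replicate 1 (log2 fold change -1.31, edgeR, adjusted p = 0.157) and without co-treated replicate 2 (-1.19, adjusted p = 0.349), as well as with no expression filter (edgeR, 0.0530) and by limma (0.117 and 0.129 with a pseudocount of 1 and of 0.1). DESeq2 called ACTA2 and also FN1, the fibronectin gene. The alcohol difference of ACTA2 ran from -1.48 to -0.69 with a library left out and was called in 4 of 14 alternatives: with the replicate block (edgeR, adjusted p = 0.0297), with at least 10 counts in every library (0.0488), without control replicate 1 (0.0370) and without alcohol replicate 1 (0.000372). TAGLN, transgelin, another actin-associated gene of contractile cells, had -0.97 ± 0.26 in co-treated against control (edgeR, adjusted p = 0.127). The collagen genes COL1A1 and COL3A1 were at 140 ± 12.7 and 180 ± 11.5 FPKM in alcohol and 136 ± 34.0 and 164 ± 13.5 FPKM in co-treated libraries (mean ± SD, n = 2), against 127 and 156 in control, and neither was called.

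The smooth muscle markers, which include ACTA2 and TAGLN, summed to 1967 and 1726 FPKM in control, 1492 and 752 in alcohol, and 1029 and 1070 in co-treated libraries. Of these 7 markers, 7 had a log2 fold change below 0 with alcohol against control (median -0.29), 4 with co-treated against alcohol (-0.02) and 7 with co-treated against control (-0.30), beside 50.6%, 49.7% and 50.2% of all genes tested, and 1 was called, ACTA2 in co-treated against control. The endothelial marker KDR and the epicardial marker TBX18 were higher in both co-treated than in both control libraries, at 6.67 and 7.70 against 4.00 and 3.70 FPKM and at 12.3 and 15.0 against 9.14 and 6.87 FPKM (edgeR, adjusted p = 0.0502 and 0.0787). DESeq2 called both KDR and TBX18 in co-treated against control, and limma called neither. The other endothelial and epicardial markers did not share one direction. In co-treated against control the log2 fold change was -0.41 for TEK, 0.08 for PECAM1 and 1.08 ± 0.63 for CDH5 (edgeR, adjusted p = 0.523). The rest were too low to be tested. Control and co-treated means were 0.345 and 0.475 FPKM for EMCN, 0.445 and 0.890 for UPK3B and 0.0650 and 0.0100 for VWF. They were 0.545 and 0.415 for WT1, 0.230 and 0.185 for MSLN, and 0.415 and 0.125 for ALDH1A2. Summed, the 6 endothelial markers ran from 6.27 to 7.16 FPKM in control, 7.87 to 8.88 in alcohol and 9.31 to 11.1 in co-treated libraries, and the 5 epicardial markers from 8.20 to 11.1, 11.2 to 11.4 and 13.6 to 16.9 FPKM. The part of cell composition in the ACTA2 difference was not tested.

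YAP, TAZ, TEAD and their targets made a list of 19 genes, all tested, of which 1 fell in co-treated against control and 0 were called otherwise. It was ANKRD1, cardiac ankyrin repeat protein, a stretch-responsive gene of cardiomyocytes and a YAP target. It measured 1551 and 1062 FPKM in control, 1114 and 524 in alcohol, and 455 and 480 in co-treated libraries. Both co-treated libraries lay below the other 4. The log2 fold change was -1.53 ± 0.29 with co-treated against control (edgeR, adjusted p = 0.0410), -0.83 ± 0.28 with co-treated against alcohol (adjusted p = 0.836) and -0.70 ± 0.28 with alcohol against control (adjusted p = 0.376). The call was lost by DESeq2 (adjusted p = 0.145), by limma (0.136 and 0.150), with no expression filter (edgeR, 0.0942), without control replicate 1 (edgeR, 0.0988), without co-treated replicate 1 (edgeR, 0.217) and without co-treated replicate 2 (edgeR, 0.370). Single alcohol libraries decided the other ANKRD1 values. Alcohol against control was -1.39 without alcohol replicate 1 (edgeR, adjusted p = 0.00413) and -0.23 without alcohol replicate 2 (0.966), and co-treated against alcohol was -0.14 without alcohol replicate 1 (edgeR, adjusted p = 0.944) and -1.30 without alcohol replicate 2 (0.0372).

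Other genes of the YAP list were lower in co-treated libraries without passing the test. AMOTL2, a YAP target that binds and restrains YAP, measured 19.6 and 17.6 FPKM in control, 20.5 and 17.7 in alcohol, and 14.4 and 11.9 in co-treated libraries (co-treated against alcohol -0.55 ± 0.14, edgeR, adjusted p = 0.587). AJUBA, a regulator of Hippo signaling, was at 41.0 and 36.6 FPKM in control and 27.4 and 23.7 in co-treated libraries (-0.69 ± 0.17, edgeR, adjusted p = 0.0956). DESeq2 called AJUBA and no other gene of the list in that comparison. At an unadjusted p under 0.05 the list had 6 genes lower and 1 higher in co-treated against control. Of all genes, 6.37% were lower and 6.26% higher there. The list had 3 lower and 0 higher in co-treated against alcohol, where 2.71% of all genes were lower and 2.84% higher. Its median log2 fold change was -0.13, -0.14 and -0.21 in the order above.

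Of 12 matricellular relatives 7 were tested, and of 19 BMP, activin and GDF ligands and antagonists 13 were, with 0 called in any comparison by edgeR, DESeq2 or limma. At an unadjusted p under 0.05 the matricellular list had 1 gene higher and 1 lower with alcohol against control and 1 lower with co-treated against control, and the BMP list had 1 higher and 1 lower, 0 higher and 1 lower, and 2 higher and 4 lower in the order above. TGFBI, a matrix protein named for its induction by TGF-beta, measured 9.29 and 10.4 FPKM in control, 7.18 and 6.67 in alcohol, and 7.40 and 6.29 in co-treated libraries (alcohol against control -0.55 ± 0.18, edgeR, adjusted p = 0.272). THBS2 was at 0.270 FPKM in both control libraries, on 8 counts each, and at 0.660 and 0.620 in alcohol libraries (1.22 ± 0.48, edgeR, adjusted p = 0.371). DESeq2 gave THBS2 no adjusted p there. LEFTY2, an inhibitor of nodal signaling within the TGF-beta superfamily, measured 29.4 and 32.7 FPKM in control, 27.9 and 28.0 in alcohol, and 22.4 and 18.0 in co-treated libraries (co-treated against control -0.68 ± 0.14, edgeR, adjusted p = 0.0704). Of 10 renin-angiotensin genes 6 were tested and 0 were called by any of these tools, with 2 higher and 1 lower at an unadjusted p under 0.05 for alcohol against control and 1 each way for co-treated against control.

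**Figure D4:**
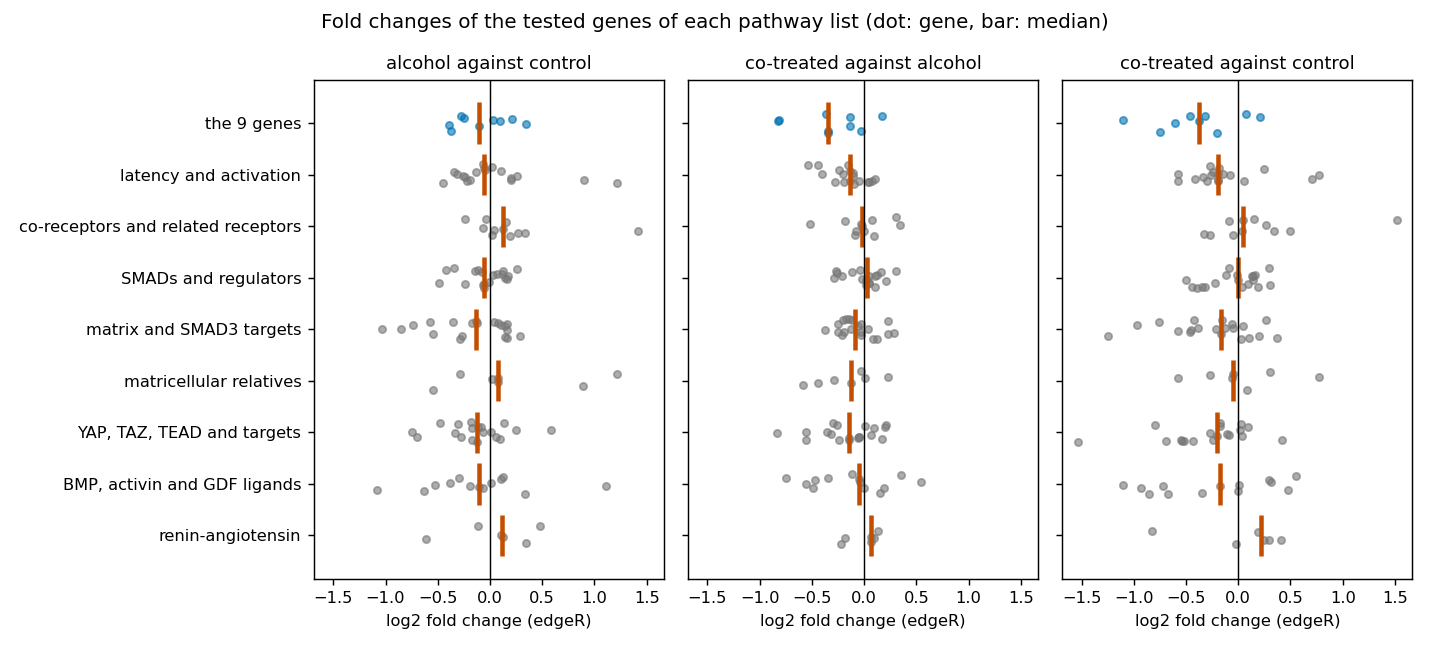
Log2 fold changes from edgeR (horizontal axis) of the tested genes of each pathway list (dots) with the list's median (bar) in the 3 comparisons, blue for the 9 genes. The medians of the 9 genes were -0.10, -0.34 and -0.38, and those of the other lists lay between -0.21 and 0.22.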

How the data were processed

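RNA sequencing of 6 libraries of hiPSC-CMs was analysed, grouped by treatment from the titles of the samples. What the authors deposited per library were expected counts (estimates of each gene's fragments, 33.9% of the nonzero ones not whole), FPKM values (estimates scaled by transcript length and library size) and transcript lengths. A series table holds these FPKM values beside gene symbols. The submitters' processing notes name HISAT2 2.0.4, Bowtie2 2.2.5, RSEM 1.2.12 and hg38 without their roles. An estimate made over transcripts can move with the isoforms a library is assigned, as for POSTN, whose length in the files ran from 3283 to 3340 bases.

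Expected counts were rounded and tested with edgeR 4.0.16 (R 4.3.3): quasi-likelihood F test, two-sided, TMM normalization, filterByExpr, all 6 libraries in 1 fit, Benjamini-Hochberg adjustment at 0.05 over 14926 genes. The SE was taken from the fold change and the F statistic, and intervals are 95%. An exact permutation test of 2 against 2 libraries cannot go below p = 0.333 (two-sided) and was not used. CPM of genes are expected counts scaled to the library total multiplied by its TMM factor. The limit in CPM set by counting error was scaled to the library total without that factor. Correlations used log2 CPM with a prior count of 2. The test was tested on simulated data. Alternatives were DESeq2 1.42.0, DESeq2-type size factors, limma 3.58.1 on log2 FPKM with a pseudocount of 1 or of 0.1, no filter, at least 10 counts in every library, a replicate block, only the groups compared, CPM in place of FPKM for levels, and each library left out. Replicates of a group differed beyond sampling noise (chi-square per gene 4.46 to 7.31).

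Members and lists were chosen with earlier results of these data known. Other genes were named by a rule: those called in any comparison, and per list and comparison the 2 with the smallest p and the most abundant gene. CNN1, FN1, COL1A1 and COL3A1 were added after their values were seen. Several cell type markers, among them MYL2, PECAM1 and WT1, are also named outside this rule. Gene positions and promoters are from RefSeq (GRCh38.p14), and overlaps from GENCODE v29. Some genes counted in the lists are not reported here by name.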

Additional observations from a re-analysis of the deposited data

How the results depend on the processing

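The count of 0 called members held in each comparison under all 14 alternatives. TGFB3 had an adjusted p in only 13 of them for alcohol against control and for co-treated against control. Of 216 member fold changes under alternatives that kept every library, 214 kept their direction, and CTGF in co-treated against alcohol turned to 0.01 with the replicate block and to 0.0013 by limma on log2(FPKM + 0.1). The cause was not tested. Of 162 with a library left out, 15 turned. For alcohol against control the log2 fold changes then ran from -0.10 to 0.16 (TGFB1), -0.21 to 0.02 (TGFB2), -0.71 to 0.11 (TGFB3), -0.99 to 0.40 (CTGF), -0.04 to 0.44 (CYR61) and -1.04 to 0.05 (THBS1). For co-treated against alcohol they ran from -0.13 to 0.07 (TGFBR1), -0.30 to 0.03 (TGFBR2), -0.63 to 0.62 (CTGF), -0.80 to 0.29 (THBS1), -0.06 to 0.36 (POSTN) and -0.56 to 0.23 (ACTA2). For co-treated against control CTGF ran from -0.81 to 0.25. A set of other genes named above, which leaves out TEK, PECAM1 and CDH5, gave 321 values. Of these, 279 kept their direction and side of the threshold, 12 lost a call, 29 gained one and 1 turned.

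The number of genes called moved more, and the cause was not tested. For alcohol against control it was 10, with 72 by DESeq2, 2 with no filter, 26 with at least 10 counts in every library, 0 by limma on log2(FPKM + 1), 2 by limma on log2(FPKM + 0.1), 48 with the replicate block and 3 with only the groups compared, and it ran from 1 (without alcohol replicate 2) to 220 (without alcohol replicate 1) with a library left out, with 64 without control replicate 1 and 3 without either co-treated library. For co-treated against alcohol it was 2, with 5, 1, 0, 1, 2, 5 and 4 in the same order, and from 1 (without co-treated replicate 2) to 24 (without alcohol replicate 1), with 7 without control replicate 2 and 5 without each of the others. For co-treated against control it was 54, with 123, 15, 78, 2, 3, 136 and 158, and from 2 (without co-treated replicate 2) to 184 (without alcohol replicate 1), with 151 without alcohol replicate 2, 4 without co-treated replicate 1 and 29 without control replicate 2. Where 1 library was left of a group, it was assumed to vary like the other groups.

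Over 14926 genes, deviations of same-numbered libraries had r = 0.114 (control and alcohol), -0.016 (control and co-treated) and 0.041 (alcohol and co-treated). Such low values over all genes cannot show that no libraries were paired. CTGF and THBS1 were higher in replicate 1 than in replicate 2 in control and in alcohol, but lower in co-treated libraries. The replicate block also moved the counts of genes called. Whether same-numbered libraries shared a culture or batch was not tested. In CPM in place of FPKM, 17 of 18 mean levels over control moved by less than 1 SD, and TGFBR1 in co-treated libraries was at 1.05. Depth limits TGFB3 most, at 10 to 30 counts.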
